A study of Mus musculus with 2 samples.

Results

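The cells described here were 74 mesothelial cells, 31 from the control library and 43 from the Dnmt1iECKO library, of 16123 cells that passed the quality filters and 18823 cells in all. They were chosen by a rule on measured values: at least 500 detected genes, at most 10% mitochondrial UMIs (unique molecular identifiers, each standing for 1 captured RNA molecule), no UMI of Ptprc, which encodes the leukocyte antigen CD45, and at least 1 UMI of 2 or more of the 5 mesothelial markers Upk3b, Msln, Wt1, Upk1b and Lrrn4. Both libraries were 10x Genomics single-cell RNA-seq of live CD31+CD45- cells, so mesothelial cells lay outside the endothelial sort gate. Control mice (C57BL/6 in the labels, Cdh5-CreERT2 reporter mice in the methods) and Cdh5CreERT2;Dnmt1fl/fl;ZsGreenlsl/lsl mice, called Dnmt1iECKO, were females of 8 to 10 weeks given tamoxifen. Cre under the endothelial Cdh5 promoter removes Dnmt1, the maintenance DNA methyltransferase, from endothelial cells (ECs), and mesothelial cells are not its target. All mice carried tumors of the mouse melanoma line YUMMER1.7, with 1 pool of the tumors of 3 mice behind each library. The labels give subcutaneous tumors of the shoulder, whereas the methods describe lung tumors after tail-vein injection.

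Mesothelium is the single layer of flat cells that lines the pleural, pericardial and peritoneal cavities and covers the organs within them. Its cells join epithelial features (keratins, tight junctions and a lubricating surface coat) with mesenchymal ones (vimentin and the transcription factor WT1). They can lose the epithelial features and take on matrix-producing, contractile ones, which is known as mesothelial-to-mesenchymal transition. Under interferon-γ they can display MHC class II, the complex that presents antigen to CD4+ T cells.

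With 1 library for each condition no test was possible. Each ratio between the libraries compares those libraries and not the conditions, and each 95% interval covers counting error only. UMIs were summed over cells and scaled by the total UMIs of those cells to the usual CPM unit, and a gene is called past 2-fold at a log2 ratio of at least 1 or at most -1. After filtering, Ptprc was detected in 18.3% of control and 58.4% of Dnmt1iECKO cells. The libraries shared 29 cell barcodes, of which 0 belonged to mesothelial cells. Mesothelial cells were deep, with a median of 53250 UMIs in the control and 58319 in the Dnmt1iECKO library, against 10421 and 10634 over all filtered cells.

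The label was checked on markers that the rule did not use. Of 22 other mesothelial genes, the 44 cells with all 5 markers had a median of 21 detected (range 14 to 21). Cells with at least 3 endothelial markers had a median of 1. Of the 5504 cells with at least 3 markers of alveolar type 1 epithelium 5117 also had at least 3 endothelial markers, and the 387 that did not had a median of 5 other mesothelial genes. The 940 cells with at least 3 fibroblast markers and fewer than 3 endothelial markers had a median of 4. Markers of other types were also present. Of 10 fibroblast markers, the cells with all 5 mesothelial markers had a median of 5 (range 3 to 7). The 1834 cells with at least 3 fibroblast markers had the same median. Medians of 3 of 10 endothelial and 3 of 9 alveolar type 1 markers were detected in the cells with all 5 markers. Of the 74 cells, 0 control and 1 Dnmt1iECKO had fewer than 3 markers of every other type. After thinning to 2000 UMIs per cell, Muc16, a mucin of the mesothelial surface, was still seen in 45.9% of mesothelial and 0.0136% of endothelial-marker cells, and the membrane glycoprotein gene Gpm6a in 59.5% and 0.816%. Calb2, which encodes calretinin and serves as a stain for mesothelium, had 0 UMIs in all 74 cells. The genes that stood highest over all other filtered cells were Upk3b at 849 CPM, Gpm6a at 776 CPM, Muc16 at 495 CPM, Msln at 480 CPM, the fibrocystin-like Pkhd1l1 at 434 CPM and the scaffold gene Grip1 at 506 CPM. Of the 20 leading genes, 5 were those of the rule and 7 were from the list of other mesothelial markers, among them Igfbp5, which binds insulin-like growth factors, and the complement gene C3. Of 9 melanoma markers, the melanocyte genes Mlana, Dct, Tyr, Tyrp1 and Sox10 were at 0 UMIs in all 74 cells, Pmel and S100b had 3 UMIs each and the transcription factor gene Mitf 37. The chromatin gene Hmga2 had 11 control and 59 Dnmt1iECKO UMIs, at 6.64 and 23.2 CPM (log2 ratio 1.81), and 1 Dnmt1iECKO cell had 3 of the 9 markers, the number by which 21 melanoma-marker cells were set apart for comparison.

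**Figure D1:**
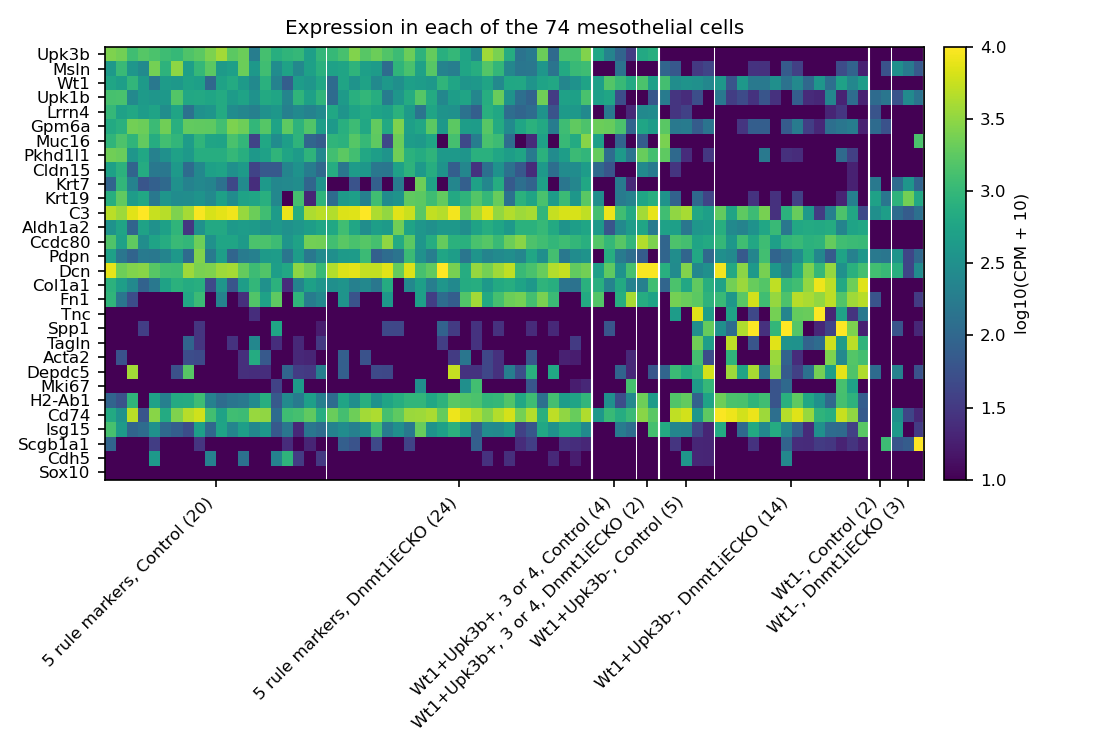
Level of 30 genes (rows) in each of the 74 mesothelial cells (columns, grouped by class and library), as colour on a log10(CPM + 10) scale. Mesothelial genes fill the columns of the 44 cells with all 5 markers, while the 19 Wt1+Upk3b- columns lack most of them and hold more of Col1a1, Tnc and Tagln.

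Just inside the threshold, 13 cells carried 2 markers, 3 control and 10 Dnmt1iECKO. The pairs were Wt1 with Upk1b in 6 cells, Msln with Upk1b in 4, Msln with Wt1 in 2 and Upk1b with Lrrn4 in 1. These cells had a median of 9 other mesothelial genes, at medians of 21127 UMIs in the control and 56024 in the Dnmt1iECKO library. Just outside it, 245 control and 56 Dnmt1iECKO cells had 1 marker, with medians of 4 and 5 other mesothelial genes at medians of 20319 and 40132 UMIs. That marker was Upk1b in 196 of the control cells and Wt1 in 28 of the Dnmt1iECKO cells. Leaving out cells with Ptprc removed 2 control and 15 Dnmt1iECKO cells that had 2 or more markers, of which 0 and 7 had all 5.

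Upk3b encodes a uroplakin, a membrane plaque protein of mesothelium and urothelium, and lies on chromosome 5 (mm10, plus strand, 136038496 to 136046487). In the cells with all 5 markers it ran from 179 to 3821 CPM in the control library (median 1354) and from 97.5 to 3732 CPM in the Dnmt1iECKO library (median 1330). The ranges overlapped, and the sums were 1358 and 1430 CPM. All other filtered cells together held 3.12 CPM. The 250 bases before its start, chr5:136038246-136038495 on the plus strand (RefSeq, GRCm38.p6), are shown because Upk3b separates the classes described next. Capitals mark the letters CATTCC, the core motif of the TEAD factors of the Hippo pathway, searched on both strands.

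Upk3b: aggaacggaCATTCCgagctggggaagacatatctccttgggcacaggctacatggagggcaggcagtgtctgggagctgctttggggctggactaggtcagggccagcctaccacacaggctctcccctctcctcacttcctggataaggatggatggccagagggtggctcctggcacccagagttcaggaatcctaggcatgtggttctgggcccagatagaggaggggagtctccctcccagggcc

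The match began 241 bases before the start. It was present in 12.6% of 32851 promoter windows of this length, in 2 of 2 windows found for the 5 markers (Upk3b and Lrrn4) and in 3 of 18 windows of the other mesothelial genes. These are counts of letters and not of bound sites.

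By Wt1 and Upk3b the cells fell into 4 classes, a division made after their values were seen. The largest held the 20 control and 24 Dnmt1iECKO cells with all 5 markers, and 4 and 2 further cells carried Wt1 and Upk3b with 3 or 4 markers. Another class, of 5 control and 14 Dnmt1iECKO cells, carried Wt1 without a UMI of Upk3b, and 2 and 3 cells had no Wt1.

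**Figure D2:**
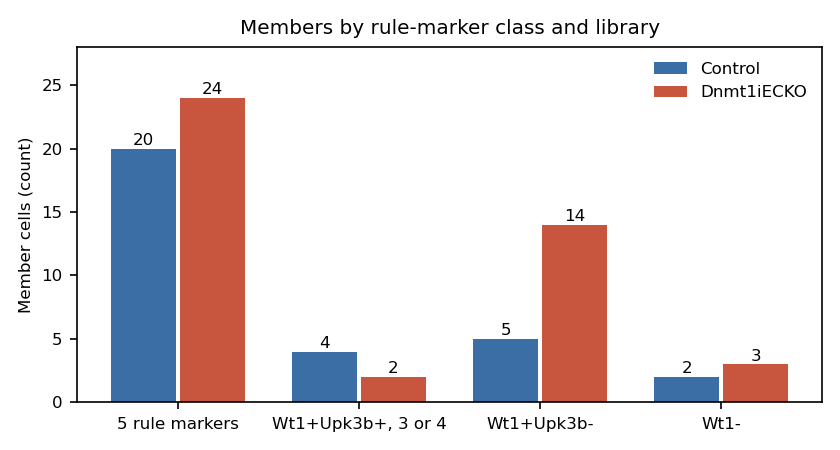
Number of mesothelial cells (y axis, from 0) in each class by Wt1 and Upk3b (x axis) in the control and the Dnmt1iECKO library. The class with all 5 markers has 20 and 24 cells and the Wt1+Upk3b- class 5 and 14.

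Mesothelial cells were 0.386% of filtered control cells (exact Clopper-Pearson interval 0.263 to 0.548) and 0.531% of filtered Dnmt1iECKO cells (0.384 to 0.714). The log2 ratio of 0.46 had an interval of -0.24 to 1.17, so a difference was not detectable at these cell numbers. Over the 6555 and 3373 cells without Ptprc the shares were 0.473% and 1.27%, with a log2 ratio of 1.43 (0.73 to 2.15). Cells with all 5 markers were 0.249% and 0.296% of filtered cells. Wt1+Upk3b- cells were 0.0623% and 0.173%, a log2 ratio of 1.47 with an interval of -0.08 to 3.30. The CD31+ gate can set all of these shares, and a difference between the classes was not tested.

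The 5 cells without Wt1 went against the label. The club cell oxidase gene Cyp2f2, of the airway lining, ran from 3171 to 8581 CPM over these cells, and the epithelial adhesion gene Epcam from 189 to 1466 CPM, against 1.19 CPM in the cells with all 5 markers. The highest airway levels were those of single cells. Of the UMIs of the secretoglobin Scgb1a1 99.8% came from 1 Dnmt1iECKO cell, where it was at 129656 CPM, while the other 4 held from 0 to 1136 CPM. The secreted defence gene Bpifa1 was at 64111 CPM in that cell and 62590 CPM in another of the library, and from 50.2 to 189 CPM in the other three. The rule counts these 5 cells among the 74.

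The 19 Wt1+Upk3b- cells had some mesothelial genes near the level of the cells with all 5 markers and others close to 0. The rule counts them as mesothelial, and their origin was not tested. Wt1 was at 281 against 440 CPM, the retinoic acid synthesis gene Aldh1a2 at 483 against 521 CPM and vimentin (Vim) at 2715 against 2822 CPM. By contrast, the simple-epithelium keratin Krt7 was at 0.755 against 264 CPM, the tight-junction gene Cldn15 at 1.51 against 263 CPM and the lubricant gene Prg4 at 1.51 against 280 CPM. Muc16 was at 21.9 against 762 CPM, all from 1 cell of the class. Of 8238 genes with at least 50 UMIs, 512 were past 2-fold higher (6.22%) and 1198 past 2-fold lower (14.5%), together 1710 (20.8%), with a median log2 ratio of -0.18. All 21 measured genes of the other mesothelial markers were lower, 19 of them past 2-fold, with a median of -3.58. The classes were cut on genes that vary with these markers, so this describes the class and is not a test of it.

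Named genes with high levels in the Wt1+Upk3b- cells included several of the matrix. Tnc, the matrix glycoprotein tenascin C, stood at 1646 against 0.396 CPM and had a UMI in 14 of 19 cells against 1 of 44, with 41.1% of its UMIs in the class in 1 cell. Spp1 (osteopontin) was at 3573 against 20.6 CPM, although 1 cell gave 48.8% of its UMIs in the class. The smooth-muscle gene Tagln was at 1686 against 12.7 CPM. Collagen I (Col1a1) was at 2933 against 451 CPM with a UMI in all 19 cells, and fibronectin (Fn1) at 2944 against 695 CPM. Between the classes, the log2 ratio of Col1a1 was 1.43 in the control and 2.88 in the Dnmt1iECKO library, and that of Fn1 1.86 and 1.89, so both libraries showed the same direction. Of 19 measured genes of fibrillar matrix and mesenchymal transition, 17 were higher and 10 past 2-fold higher, with a median of 1.05. The list of basement membrane and other matrix was divided, with 10 of 20 measured genes higher and 10 lower, 6 and 5 of them past 2-fold, and a median of -0.0056. The 1834 cells with at least 3 fibroblast markers held 302 CPM of Tnc, 1616 CPM of Spp1 and 601 CPM of Col1a1. Of these cells 894 also had at least 3 endothelial markers, so the values are not those of fibroblasts alone.

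**Figure D3:**
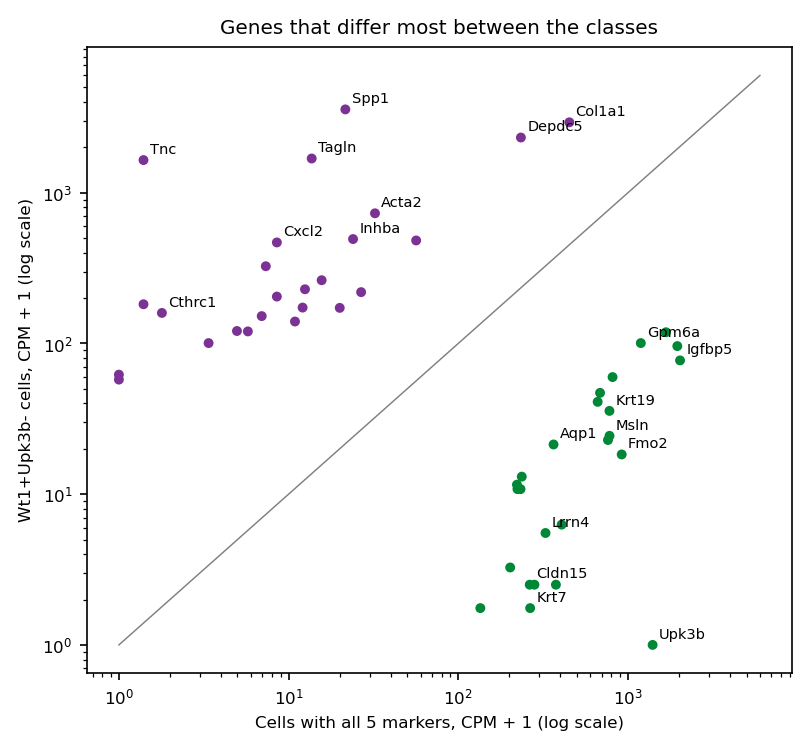
Levels of the 50 genes that differ most between the classes, in the 44 cells with all 5 markers (x axis) and the 19 Wt1+Upk3b- cells (y axis), both as CPM + 1 on log axes. Tnc, Spp1 and Tagln lie far above the line of equal levels, and Upk3b, Krt7 and Cldn15 far below it.

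Other groups also separated the classes. Of 16 measured cell-cycle genes 11 were past 2-fold higher in the Wt1+Upk3b- cells (median 1.57), with the proliferation gene Mki67 at 252 against 56.3 CPM and a UMI in 6 of 19 against 8 of 44 cells. All 12 measured genes of hypoxia and glycolysis were higher, 7 past 2-fold (median 1.20), among them the angiogenic growth factor gene Vegfa at 222 against 37.7 CPM. Of 12 complement genes 9 were past 2-fold lower (median -1.88), with C3, the central complement component, at 1044 against 4888 CPM. Of 38 interferon-γ response genes 29 were lower and 17 past 2-fold lower, beside 14.5% of all genes, and the chemokine gene Cxcl9 was past 2-fold higher with 80.6% of its UMIs in 1 cell. Of 30 type I interferon response genes 27 were lower and 12 past 2-fold lower, and Ifit2 was past 2-fold higher with 85.2% of its UMIs in 1 cell. Hmga2, the 1 melanoma marker measured here, was at 43.0 against 4.36 CPM (log2 ratio 3.30), with a UMI in 7 of 19 against 6 of 44 cells, and its part in the class was not tested.

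Over all mesothelial cells, 8581 genes reached 50 UMIs, of which 296 were past 2-fold higher in the Dnmt1iECKO library (3.45%) and 313 lower (3.65%), together 609 (7.1%), with a median log2 ratio of -0.05. The highest named ratio, 7.82 for Scgb1a1, came from 1 cell without Wt1. The serine protease inhibitor gene Serpine2 went from 1.81 to 41.8 CPM (3 and 106 UMIs), with 81.7% of its UMIs in 1 cell, and had 2 and 5 UMIs in the cells with all 5 markers. Spp1 went from 155 to 1786 CPM (log2 ratio 3.53) and follistatin (Fst), an activin antagonist, from 16.9 to 165 CPM (3.29). Within the cells with all 5 markers, which leave out the Wt1+Upk3b- class, the ratios of Spp1 and Fst were -2.31 and -1.83. These rested on few UMIs. Spp1 had 42 control and 10 Dnmt1iECKO UMIs there, 75% of them in 1 cell. Fst had 12 and 4, under the minimum of 50, with 43.8% in 1 cell. Etv1, an ETS transcription factor gene, had 0 control and 85 Dnmt1iECKO UMIs, at least 18.5-fold higher against a floor of 3 counts per library. Many of the genes with the lowest ratios are known from endothelium, among them the VEGF receptor Flt1 at 89.3 and 3.15 CPM, the tight-junction gene Cldn5 at 59.1 and 2.76 CPM, the capillary lipase anchor Gpihbp1 at 41.0 and 1.58 CPM and the TGF-β co-receptor Eng at 58.5 and 2.76 CPM. Myl7, an atrial myosin light chain gene, was at 149 and 9.85 CPM. The cell with the most UMIs of a gene gave 44.1% for Myl7, 48.6% for Gpihbp1, 45.7% for Cldn5, 32.7% for Flt1 and 27.9% for Eng.

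Endothelial UMIs moved with the library in the mesothelial cells. Cdh5 (VE-cadherin) or Pecam1 (CD31) was detected in 20 of 31 control and 13 of 43 Dnmt1iECKO mesothelial cells, and in 12 of 20 and 7 of 24 of those with all 5 markers. In the latter, Cdh5 was at 102 and 2.92 CPM, with 52.5% of its UMIs in 1 control cell, against 1194 CPM in endothelial-marker cells. The summed level of the 10 endothelial markers ran from 160 to 4920 CPM over control cells with all 5 markers (median 360) and from 99.4 to 874 CPM over Dnmt1iECKO cells (median 298). The medians were close and the highest control cells lay outside the Dnmt1iECKO range. Of 7 measured endothelial genes 5 were past 2-fold lower. In all other filtered cells 10 of 10 were past 2-fold lower (median -1.34), beside 1095 of all 17940 genes there. In the other cells without Ptprc 10 of 10 were lower and 0 past 2-fold (median -0.60). Interferon values without the cells that carried Cdh5 or Pecam1 follow the interferon result, and the part of these UMIs in the other differences was not tested.

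In the cells with all 5 markers, 6948 genes reached 50 UMIs, of which 235 were past 2-fold higher in the Dnmt1iECKO library (3.38%) and 282 lower (4.06%), together 517 (7.44%), with a median of 0.01. Of 21 other mesothelial markers, none of them used by the rule, 2 were past 2-fold higher and 0 lower, with a median of 0.08. Muc16 was at 622 and 880 CPM and Gpm6a at 1390 and 1021 CPM. The interferon response lists stood higher. Of 37 measured interferon-γ response genes 33 were higher and 7 past 2-fold higher (18.9% of the list) with 1 lower, and the median was 0.64. Of 27 type I interferon response genes 25 were higher and 6 past 2-fold higher (22.2%), with a median of 0.71.

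Genes of the MHC class II pathway led the first list. H2-Ab1, the β chain of I-A, ran from 0 to 1164 CPM over the control cells (median 194) and from 101 to 1694 CPM over the Dnmt1iECKO cells (median 809). Its sums of 337 and 863 CPM gave a log2 ratio of 1.36 (1.19 to 1.53). H2-Eb1, the β chain of I-E, ran from 0 to 1392 CPM (median 212) and from 117 to 1832 CPM (median 909), with a ratio of 1.37 (1.21 to 1.53). In both genes the Dnmt1iECKO median lay far above the control median while the ranges overlapped. The α chain gene H2-Aa was at 405 and 922 CPM, and H2-DMa, which helps to load peptide, at 30.3 and 103 CPM. Cd74, the invariant chain, went from 1835 to 3658 CPM (log2 ratio 1.00), with control cells from 52.5 to 6103 CPM and Dnmt1iECKO cells from 777 to 8380 CPM. The gene of their master regulator, Ciita, had 7 and 15 UMIs and was not measured well enough to compare. Cd274, which encodes the checkpoint ligand PD-L1, had 20 and 64 UMIs, in 8 of 20 and 13 of 24 cells (17.3 and 46.8 CPM).

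The interferon-induced GTPase Gbp2 ran from 85.3 to 998 CPM over control cells (median 298) and from 106 to 2025 CPM over Dnmt1iECKO cells (median 613), a log2 ratio of 1.23 (1.06 to 1.39). Other GTPases of the family share similar sequence, so its UMIs may be partly those of relatives. Isg15, a ubiquitin-like modifier induced by type I interferon, was at 211 and 416 CPM (0.98, interval 0.76 to 1.20). Zbp1, a sensor of Z-form nucleic acid, was at 105 and 270 CPM (1.36). These lay higher in the Dnmt1iECKO sum with overlapping cells. Not every gene followed: the transcription factor gene Irf1 was at 378 and 417 CPM (0.14), and Socs1, which dampens the signal, was lower, at 47.6 and 17.5 CPM (-1.44).

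**Figure D4:**
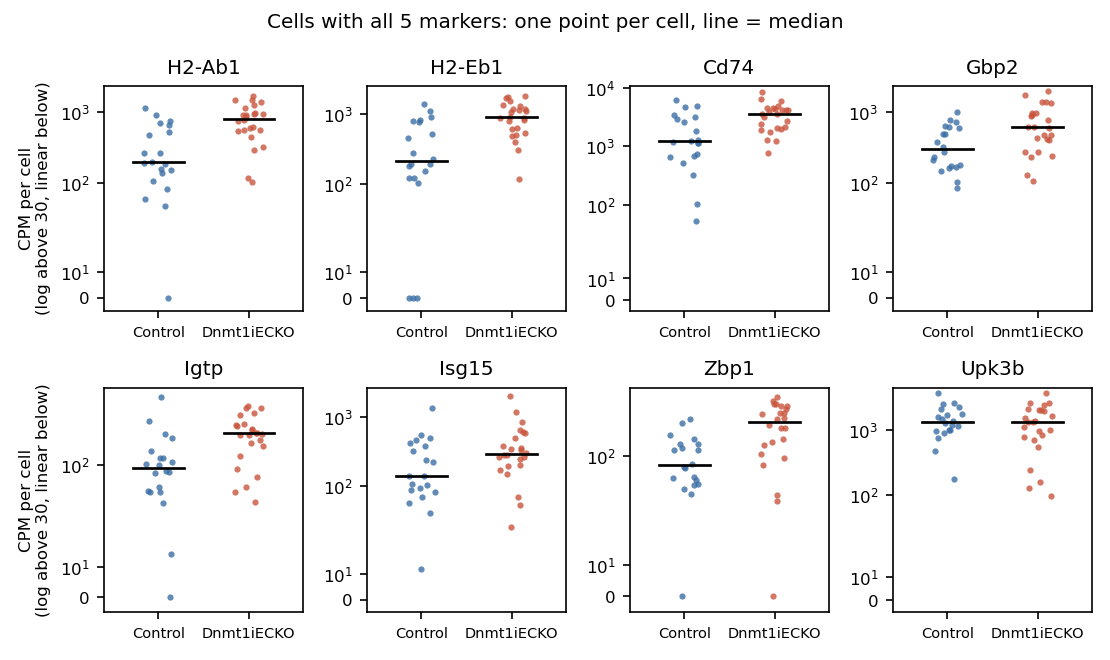
CPM of 8 genes (panels) in each cell with all 5 markers, 20 control and 24 Dnmt1iECKO, on an axis that is linear below 30 CPM and logarithmic above; bars mark the medians. The Dnmt1iECKO medians of H2-Ab1, H2-Eb1, Cd74 and Gbp2 lie above the control medians, and the ranges of the libraries overlap in each panel. The medians of Upk3b are close, but each cell shown was required to carry this gene.

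Promoters of 2 of these genes are shown with the interferon-stimulated response element, GAAA followed after any 2 bases by GAAA, searched on both strands and set in capitals. Both are 250-base windows from RefSeq (GRCm38.p6), given in the direction of the gene: Isg15 at chr4:156200819-156201068 on the minus strand and Igtp, an immunity-related GTPase gene that overlaps Irgm2, at chr11:58199306-58199555 on the plus strand.

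Isg15: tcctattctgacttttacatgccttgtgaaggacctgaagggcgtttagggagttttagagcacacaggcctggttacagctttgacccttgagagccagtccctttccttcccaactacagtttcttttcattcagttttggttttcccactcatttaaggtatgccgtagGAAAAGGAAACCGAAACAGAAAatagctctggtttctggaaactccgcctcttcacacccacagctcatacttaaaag
Igtp: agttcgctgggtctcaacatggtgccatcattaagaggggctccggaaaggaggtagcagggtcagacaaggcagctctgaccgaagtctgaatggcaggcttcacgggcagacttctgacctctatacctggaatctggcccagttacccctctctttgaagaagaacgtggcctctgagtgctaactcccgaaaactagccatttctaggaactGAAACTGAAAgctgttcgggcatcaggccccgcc

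The Isg15 window held 3 overlapping matches and the Igtp window 1, which began 34 bases before the start. Igtp was at 136 and 246 CPM in the control and Dnmt1iECKO cells with all 5 markers. The element was found in 11 of 37 windows of the interferon-γ list and 11 of 31 of the type I list, beside 2.98% of all windows.

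Immune RNA and other cell types were set beside these values. In the cells with all 5 markers, the macrophage gene Lyz2 was at 16.5 and 27.1 CPM (19 and 37 UMIs), against 6113 and 5782 CPM in cells with Ptprc. In cells with Ptprc, H2-Ab1 was at 2444 and 2671 CPM. Of the 9 immune markers, Ptprc is at 0 by the rule, Nkg7 was at 0 in both libraries, and their sum ran from 0 to 165 CPM over control and 0 to 217 CPM over Dnmt1iECKO cells with all 5 markers. The part of leukocyte RNA in the class II values was not tested.

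Other cells of the same libraries were set beside this difference. In the other Ptprc-negative cells, 6524 control and 3330 Dnmt1iECKO, 15 of 42 interferon-γ genes were higher, with a median of -0.09, and 9 of 36 type I genes, with a median of -0.24. Of these cells 5528 control and 2299 Dnmt1iECKO had at least 3 endothelial markers. The mix of cell types thus differed between the libraries, and its part in these medians was not tested. There H2-Ab1 was at 344 and 308 CPM and Isg15 at 264 and 226 CPM, while Zbp1 was at 46.3 and 74.0 CPM and Cxcl9 at 101 and 203 CPM, both higher in the Dnmt1iECKO library. In cells without Ptprc that had at least 3 fibroblast markers and fewer than 3 endothelial markers (403 control and 537 Dnmt1iECKO), 32 of 40 interferon-γ genes were higher (median 0.21) and 22 of 35 type I genes (median 0.16). There H2-Ab1 was at 59.8 and 82.1 CPM, a log2 ratio of 0.46 (0.32 to 0.59), Gbp2 at 227 and 292 CPM and Cd274 at 25.6 and 42.5 CPM, whereas Isg15 was at 258 and 212 CPM. Most of the interferon-γ list thus lay in the same direction in these cells as in the mesothelial cells. Past 2-fold there were 0 of its 40 genes, beside 147 higher and 148 lower of all 12747 genes measured in these cells. Among the Wt1+Upk3b- cells, 5 control and 14 Dnmt1iECKO, H2-Ab1 was at 845 and 775 CPM and Gbp2 at 250 and 254 CPM. These 2 genes were thus close between the libraries in that class, and the rest of the list is not given for it. Neither contrast between cell groups was tested, as each group has 1 library per condition. In the 8 control and 17 Dnmt1iECKO cells with all 5 markers and no UMI of Cdh5 or Pecam1, 32 of 35 interferon-γ genes were higher and 13 past 2-fold higher (median 0.85), and 16 of 25 type I genes were higher and 2 past 2-fold higher (median 0.32). Of all 4567 genes measured in these cells 2595 were higher and 1972 lower, with a median of 0.09. Past 2-fold, 277 were higher (6.07%) and 214 lower (4.69%), together 491 (10.8%). The type I counts in these cells thus lay near those of all genes. Over all 74 cells the interferon-γ median was 0.28, and it fell to 0.0022 when the 10% of cells with the most UMIs were left out of each library.

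**Figure D5:**
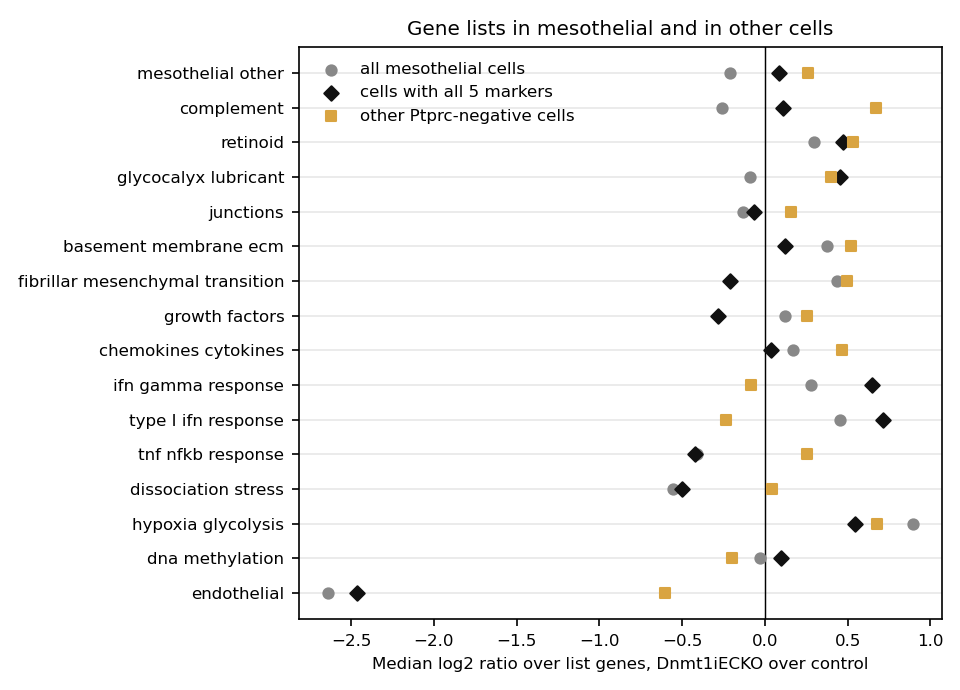
Median log2 ratio (Dnmt1iECKO over control, x axis) of 16 gene lists (y axis) in all 74 mesothelial cells, in the 44 with all 5 markers and in the other Ptprc-negative cells. The 2 interferon lists lie at 0.64 and 0.71 in the cells with all 5 markers and at -0.09 and -0.24 in the other cells, whose mix of cell types differs between the libraries.

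Structural and secreted genes of the cells with all 5 markers differed gene by gene. Krt19, a simple-epithelium keratin, was at 501 and 1010 CPM (log2 ratio 1.01), whereas Krt18 was at 562 and 331 CPM (-0.76), and the keratin list had a median of -0.11. Of 8 surface-coat genes 6 were higher, with Prg4 at 134 and 404 CPM (1.59, with 32.3% of its UMIs in 1 cell) and the proteoglycan gene Sdc1 at 13.0 and 29.2 CPM. Igfbp5 ran from 13.9 to 4754 CPM over control cells (median 937) and from 171 to 9294 CPM over Dnmt1iECKO cells (median 1594), a ratio of 1.41. Its highest cell gave 20.4% of these UMIs. The retinoic acid receptor gene Rarb, itself induced by retinoic acid, was at 15.6 and 50.4 CPM and detected in 8 of 20 and 22 of 24 cells. Of 6 retinoid genes 5 were higher, with Aldh1a2 at 439 and 591 CPM. Complement was level, with C3 at 4733 and 5018 CPM and a list median of 0.11.

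Growth factor genes were divided. The fibroblast growth factor gene Fgf1 was at 29.4 and 233 CPM (log2 ratio 2.99), in 11 of 20 and 16 of 24 cells. The insulin-like growth factor gene Igf1 was at 121 and 31.4 CPM (-1.95), the bone morphogenetic protein gene Bmp4 at 56.3 and 17.5 CPM (-1.68) and the KIT ligand gene Kitl at 275 and 121 CPM (-1.18). Of 18 measured growth factor genes 4 were past 2-fold higher and 5 lower. The TGF-β1 gene Tgfb1 was at 51.1 and 16.8 CPM and Thbs1, which activates latent TGF-β, at 314 and 135 CPM with 47.8% of its UMIs in 1 cell. The list of fibrillar matrix and mesenchymal transition, which holds both, had 8 of 17 measured genes higher and 9 lower, with a median of -0.21 here and of 0.43 over all 74 cells, a change of sign with the class mix. The monocyte chemokine genes Ccl2 and Ccl7 were lower, at 737 and 200 CPM and at 271 and 107 CPM, with 44.1% of Ccl2 UMIs in 1 cell.

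Stress genes were lower in the Dnmt1iECKO cells with all 5 markers. Of 13 genes induced by tissue dissociation 12 were lower (median -0.50), and 2 were past 2-fold lower, the near-identical heat shock genes Hspa1a (365 and 92.1 CPM) and Hspa1b (292 and 83.3 CPM). Hspa1a was also lower in cells with Ptprc, at 121 and 40.0 CPM, and in the other cells without it, at 313 and 179 CPM, where 8 of the 13 list genes were higher (median 0.04). The cell-cycle inhibitor gene Cdkn1a, a p53 target, was at 655 and 178 CPM (-1.88). The median of the TNF and NF-κB list was -0.42 and that of hypoxia and glycolysis 0.54, beside 0.25 and 0.68 in the other Ptprc-negative cells.

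Dnmt1, the gene deleted in ECs, was at 28.6 and 30.0 CPM in the cells with all 5 markers (33 and 41 UMIs), a log2 ratio of 0.07 with an interval of -0.63 to 0.78. UMIs at the 3′ end need not reflect a deletion elsewhere in the gene, so this does not check recombination. For the tumor endothelial cells the paper reports much lower Dnmt1 expression in Dnmt1iECKO mice. The de novo methyltransferase gene Dnmt3a was at 66.7 and 79.0 CPM. Among 7 measured imprinted and germline genes, Meg3 and Rian, noncoding RNAs of 1 imprinted cluster, were at 64.1 and 330 CPM (2.36) and at 9.52 and 71.6 CPM (2.91). Plagl1 and Cdkn1c were lower, at 80.5 and 14.6 CPM (-2.46) and at 61.5 and 21.9 CPM (-1.49). Meg3 had a UMI in 10 of 20 and 14 of 24 cells, so its level differed among cells within each library.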

How the data were processed

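Single-cell RNA-seq of 1 control and 1 Dnmt1iECKO library was used, each from the pooled tumors of 3 mice. The deposited values are UMI counts per gene and cell, which the authors made with Cell Ranger on mm10, with cells already called and no normalization. The libraries held 123830489 UMIs (control) and 141433493 UMIs (Dnmt1iECKO).

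Cells with fewer than 500 detected genes or over 10% mitochondrial counts were removed, and mesothelial cells were taken by the marker rule. The members and gene lists were chosen with earlier results of these data known. Scrublet scores in scanpy 1.11.5 marked doublets at 0.4% per 1000 cells, 0 of them mesothelial, and none were removed. Counts were summed and scaled to CPM, and genes entered with 50 UMIs or more over the pair of libraries. Intervals of shares are Clopper-Pearson, and those of ratios are exact given the summed count. Each condition has 1 library, so there is no test, p-value or standard error. Named genes are those of the lists, the 12 highest and 12 lowest log2 ratios detected in at least 20% of the mesothelial cells of a library with the same direction in the mean over single cells, and the 20 leading genes over all other filtered cells (10 CPM added). The genes named for the Wt1+Upk3b- and Wt1-negative classes, and Bpifa1 and Cyp2f2, were chosen after their values were seen. All 469 gene identifiers looked up were found in the GENCODE annotation of mm10, and promoter sequences are from RefSeq. Python 3.11.15, NumPy 2.4.6, SciPy 1.17.1 and pandas 2.3.3 were used, and the ratio calculation was tested on simulated data.

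Alternatives were more markers, other gene and mitochondrial limits, cells with Ptprc kept, cells with Cdh5 or Pecam1 or markers of another type left out, doublets removed, thinning to 2000 UMIs, size factors, means over single cells, the deepest 10% left out, and minima of 20 and 200 UMIs. Settings on the classes were added after the data were seen. Some results covered by the naming rule are not reported here.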

Additional observations from a re-analysis of the deposited data

How the results depend on the processing

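No paired analysis was possible because each condition has 1 library and no result comes from a test. Of the 115 alternative values of the main results, 91 stayed within the interval of the reported value (for a list, the median of its genes’ intervals) or within 1.5 times the reported count, 15 moved and 9 changed sign, and the cause was not tested unless named. The share of mesothelial cells had a log2 ratio of 0.46, and of 1.43 without cells carrying Cdh5 or Pecam1 and likewise 1.43 over cells without Ptprc. Genes past 2-fold, 296 higher and 313 lower, numbered 462 higher without cells carrying Cdh5 or Pecam1, 574 and 626 at a minimum of 20 UMIs and 105 and 75 at 200 UMIs, where more or fewer genes are tested. The interferon-γ median of 0.28 was 0.78 with markers counted after thinning, 0.0022 without the deepest 10% of cells, 0.64 in cells with all 5 markers, 0.57 without the Wt1+Upk3b- cells and 0.85 with all 5 markers and no Cdh5 or Pecam1. The type I interferon median of 0.46 was 0.98 after thinning and -0.013 without the deepest 10%. The median of the other mesothelial markers, -0.21, was 0.0023 with at least 3 markers, -0.38 without Cdh5 or Pecam1, 0.32 after thinning, -0.54 without the deepest 10%, 0.084 with all 5 markers and 0.12 without Wt1+Upk3b- cells. The fibrillar matrix median of 0.43 was -0.53 after thinning, -0.21 with all 5 markers, -0.14 without Wt1+Upk3b- cells and -0.095 with all 5 markers and no Cdh5 or Pecam1.

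Other lists and genes changed sign as follows. The cell-cycle median of -0.52 was 0.15 with at least 3 markers, 0.053 without the deepest 10% and 1.12 with all 5. The keratin median of -0.21 was 0.061 with Ptprc cells kept, 0.78 without Cdh5 or Pecam1, 0.86 with all 5 markers besides and 0.039 as a mean over cells. The retinoid median of 0.30 was -0.17 without Cdh5 or Pecam1. The complement median of -0.26 was 0.38 after thinning, 0.11 with all 5 markers and 0.084 without Wt1+Upk3b- cells. With all 5 markers and no Cdh5 or Pecam1, basement membrane was -0.18 and fibroblast -0.014. Scgb1a1 was -0.92 after thinning. Spp1 was -4.26 after thinning, -2.31 with all 5 markers and -2.05 without Wt1+Upk3b- cells. Fst was -2.76, -1.83 and -1.91 in these settings, and -1.66 with all 5 markers and no Cdh5 or Pecam1. In the cells with all 5 markers the ratios of both genes rested on few UMIs. Leaving out cells with at least 3 markers of another type left 0 control and 1 Dnmt1iECKO cells, so it gave no value. Leaving out a replicate was not possible with 1 library per condition.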

Other observations

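Rpl29, a ribosomal protein gene chosen after its values were seen, had among the widest separations between the libraries in cells with all 5 markers. It ran from 247 to 2171 CPM over the 20 control cells (median 854) and from 0 to 477 CPM over the 24 Dnmt1iECKO cells (median 161), with sums of 970 and 164 CPM and a log2 ratio of -2.57. It was lower in other cells too, at 926 and 231 CPM in cells with Ptprc and at 745 and 514 CPM in the other cells without it, but at 1111 and 913 CPM in cells with fibroblast markers and fewer than 3 endothelial markers.

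The other genes given here were also chosen after their values were seen. Chl1, a neural adhesion gene, was at 1.73 and 197 CPM in cells with all 5 markers, with a UMI in 2 of 20 and 10 of 24 cells. Sntg1, a syntrophin gene that the naming rule also gives, was at 49.3 and 707 CPM, in 6 of 20 and 17 of 24 cells. Depdc5, a regulator of amino acid signalling to mTORC1, was at 2324 CPM in the Wt1+Upk3b- cells, with a UMI in 18 of 19 of them and 24.6% of its UMIs in 1 cell, and at 233 CPM in the cells with all 5 markers, with a UMI in 22 of 44.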
